A study of Homo sapiens with 4 samples.

Results

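The genes described here are 10 members of the matrix metalloproteinase (MMP) system, of 57815 rows in the expression table: the secreted proteases MMP1, MMP2, MMP7 and MMP9, the membrane-anchored proteases MMP14, MMP15 and MMP24, and the tissue inhibitors TIMP1, TIMP2 and TIMP3. They were taken by gene symbol, and each symbol had a single row. The rows were read in 4 RNA-seq libraries of established human gastric carcinoma lines: MKN1 with siHOXB9, MKN1 with siScramble, AGS with siHOXB9 and AGS with siScramble. siHOXB9 is a small interfering RNA against the homeobox transcription factor HOXB9, and siScramble is the scrambled control. All 4 cultures were transfected with the same lipid reagent, Lipofectamine 2000, and the labels give no dose or time after transfection. The series searched for genes that respond to HOXB9.

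MMPs are zinc-dependent endopeptidases that are made as inactive proenzymes and, once activated, cut collagens, laminins and other proteins of the extracellular matrix and the cell surface. TIMPs are small secreted proteins that block the active site of MMPs. MMP14 sits in the plasma membrane and, with TIMP2 as a bridge, captures and activates the proenzyme of MMP2, so the balance of these 3 transcripts is often examined in invasive carcinomas. MMP1 (interstitial collagenase) cleaves fibrillar collagen, MMP2 and MMP9 (the gelatinases) cleave denatured collagen and basement membrane collagen, and MMP7 (matrilysin) is a small epithelial protease and a known WNT target.

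There was 1 library per line and siRNA, so within a line no difference has a replicate error. Values are FPKM: fragment numbers divided by gene length and by library size, so that levels of different genes can be set against each other. Depth estimated from the spacing of low values was 10700000 to 13060000 fragments per library. HOXB9 was at 0.218 FPKM with siHOXB9 against 1.14 FPKM with siScramble in MKN1, and at 4.44 FPKM with siHOXB9 against 16.4 FPKM with siScramble in AGS, so the targeted transcript was lower with siHOXB9 in both lines. The keratins KRT8 and KRT18 were at 654 to 1880 FPKM in all 4 libraries, while EPCAM was at 2.70 and 2.14 FPKM in MKN1 siHOXB9 and siScramble and at 359 and 328 FPKM in AGS siHOXB9 and siScramble. CDH1, E-cadherin, did not exceed 3.28 FPKM in any library. Among fibroblast markers COL1A2 and POSTN were listed at 0 in all 4 libraries, while COL1A1 was at 15.8 to 43.9 FPKM. COL3A1 was at 20.2 and 17.4 FPKM and LUM at 6.90 and 3.93 FPKM in MKN1 siHOXB9 and siScramble. PDGFRA was at 12.7 and 12.2 FPKM in AGS siHOXB9 and siScramble. Among leukocyte markers CD3E, CD163 and MS4A1 were listed at 0 in all 4 libraries, while CSF1R was at 8.11 and 5.99 FPKM in AGS siHOXB9 and siScramble. The leukocyte list as a whole was at 3.25 and 3.27 FPKM in MKN1 siHOXB9 and siScramble and 2171 and 2202 FPKM in AGS siHOXB9 and siScramble, of which LYZ, lysozyme, gave 2163 and 2197 FPKM in AGS. The endothelial list summed to at most 2.16 FPKM in any library.

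The 2 lines carried different sets of these proteases. MKN1 had MMP2 and TIMP3 with almost no MMP1 or MMP14. AGS had MMP1 and MMP14 with almost no MMP2 or TIMP3. TIMP1 was the most abundant member in every library and was at a similar level in all 4.

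Among the secreted proteases, MMP1 was at 0.0549 FPKM in MKN1 siHOXB9 and 0.0508 FPKM in MKN1 siScramble, against 49.2 FPKM in AGS siHOXB9 and 185 FPKM in AGS siScramble. The MKN1 values correspond to about 1.01 and 1.00 fragments, so they lie at the smallest step the libraries can show. MMP2 had the reverse distribution, with 31.6 and 20.7 FPKM in MKN1 siHOXB9 and siScramble and 0.165 and 0.154 FPKM in AGS siHOXB9 and siScramble. MMP7 was low throughout: 1.30 and 2.41 FPKM in MKN1 siHOXB9 and siScramble and 0.462 and 0.355 FPKM in AGS siHOXB9 and siScramble. MMP9, the second gelatinase, stayed under 1 FPKM everywhere, with 0.174 and 0.107 FPKM in MKN1 siHOXB9 and siScramble, 0.0216 FPKM in AGS siHOXB9 and a listed 0 in AGS siScramble. At the estimated depths this is at most 3.86 fragments in a library, too few to read a difference from.

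Among the membrane proteases, MMP14 was at 0.823 and 0.669 FPKM in MKN1 siHOXB9 and siScramble and at 191.6 and 162 FPKM in AGS siHOXB9 and siScramble. The lines do not overlap, and MMP14 was the most abundant protease of the group in AGS siHOXB9. MMP15, another membrane-type MMP, was present in both lines, at 37.0 and 27.4 FPKM in MKN1 siHOXB9 and siScramble and 64.9 and 84.8 FPKM in AGS siHOXB9 and siScramble. MMP24, a membrane-type MMP best known from the nervous system, was at 6.05 and 4.38 FPKM in MKN1 siHOXB9 and siScramble and 8.85 and 5.57 FPKM in AGS siHOXB9 and siScramble. MMP24 values of the lines overlap.

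Among the inhibitors, TIMP1 was at 327 and 289 FPKM in MKN1 siHOXB9 and siScramble and 315.5 and 261.5 FPKM in AGS siHOXB9 and siScramble. TIMP2, which inhibits MMPs and also serves in the activation of MMP2, was at 103.5 and 94.8 FPKM in MKN1 siHOXB9 and siScramble and 43.9 and 37.3 FPKM in AGS siHOXB9 and siScramble. TIMP3, which binds to the matrix and also inhibits ADAM proteases, was at 14.9 and 13.7 FPKM in MKN1 siHOXB9 and siScramble. In AGS it was listed at 0 with siHOXB9 and at 0.0177 FPKM, about 1.00 fragment, with siScramble.

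**Figure D1:**
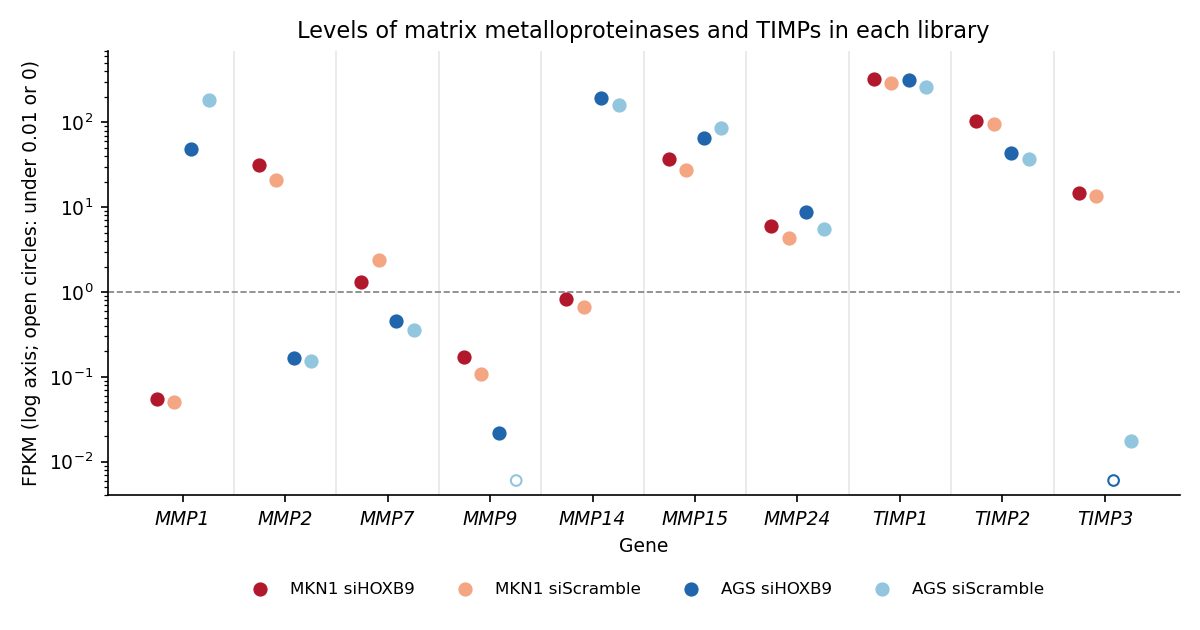
FPKM of each gene in the 4 libraries on a log axis, 1 point per library, with a dashed line at 1 FPKM. MMP1 and MMP14 lie above 40 FPKM in AGS and under 1 FPKM in MKN1, MMP2 and TIMP3 lie above 10 FPKM in MKN1 and under 1 FPKM in AGS, and TIMP1 lies between 261.5 and 327 FPKM throughout.

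The difference between the lines was tested with limma on log2(FPKM + 1) in a model of line plus siRNA, over the 13758 rows that reached 1 FPKM in 2 libraries or more. The 2 libraries of a line differ in siRNA and stand in for repeats, with 1 residual degree of freedom per gene. limma moderates the variance of each gene over all rows. The p-values rest on the spread between these libraries, so moderated, and do not measure variation between repeat cultures. Of the 10 genes 9 entered the fit, and MMP9 did not. MMP1, MMP2, MMP7, MMP14 and TIMP3 passed the level filter only through the line in which they are high. The direction of their difference, though not its size, follows from this, and neither their number nor their p-values support anything. MKN1 was higher than AGS, past an adjusted p of 0.05 and a 2-fold size, for MMP2 (log2 difference 4.52, SE 0.238, adjusted p 6.5e-06), TIMP3 (3.92, SE 0.215, adjusted p 8.0e-06) and TIMP2 (1.27, SE 0.168, adjusted p 0.000596). MKN1 was lower than AGS for MMP14 (log2 difference -6.67, SE 0.189, adjusted p 7.7e-07), MMP1 (-6.52, SE 0.408, adjusted p 1.5e-05) and MMP15 (-1.19, SE 0.226, adjusted p 0.00317). Over all rows tested, 16.2% were higher and 20.9% lower in MKN1 by the same rule, so 3 genes in each direction of 9 is a description and not a feature of this family.

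For the remaining 3 tested genes the rule was not met. MMP7, which entered the fit through its MKN1 values alone, missed the size rule at a log2 difference of 0.99 (SE 0.244, adjusted p 0.0103 in limma). It was past the rule with a pseudocount of 0.1 FPKM (1.89), after centring (1.18) and after quantile normalization (1.07). MMP24 (log2 difference -0.39, SE 0.212, adjusted p 0.157) and TIMP1 (0.10, SE 0.164, adjusted p 0.629) did not pass the threshold, which does not show that the lines have equal levels.

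Summed over the family, the protease and inhibitor transcripts stood in different proportions in the lines. The 7 MMPs together came to 77.0 and 55.8 FPKM in MKN1 siHOXB9 and siScramble and 315.1 and 438 FPKM in AGS siHOXB9 and siScramble. The 3 TIMPs together came to 446 and 398 FPKM in MKN1 siHOXB9 and siScramble and 359 and 299 FPKM in AGS siHOXB9 and siScramble. The ratio of TIMP to MMP transcript was 5.79 and 7.13 in MKN1 siHOXB9 and siScramble and 1.14 and 0.682 in AGS siHOXB9 and siScramble. TIMP transcripts thus exceeded MMP transcripts in both MKN1 libraries and in AGS siHOXB9, and were below them in AGS siScramble. These are ratios of transcript, not of protein.

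**Figure D2:**
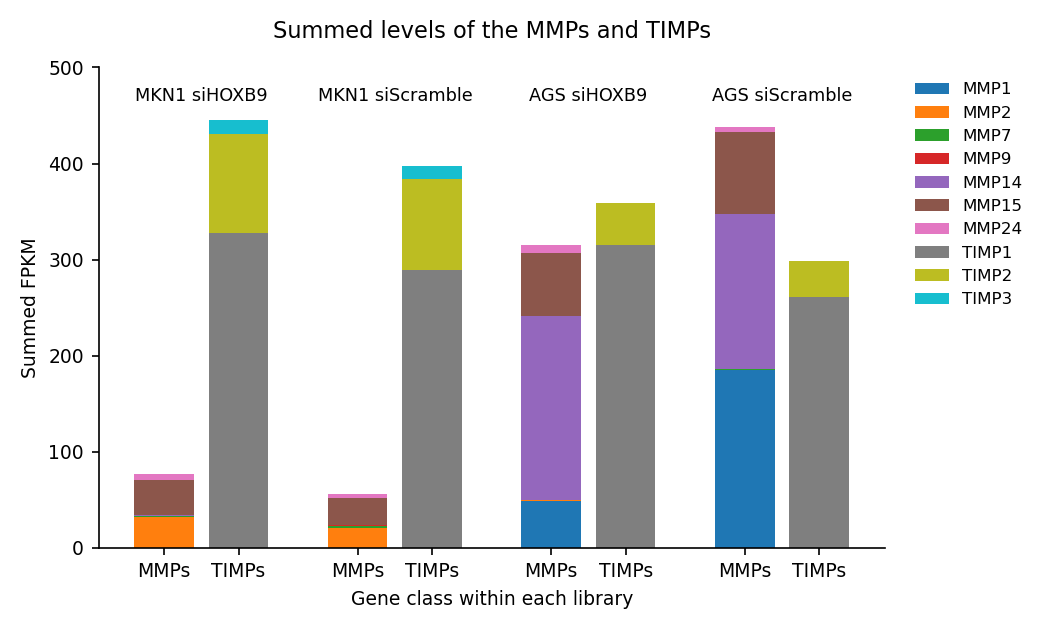
Summed FPKM of the 7 MMPs and the 3 TIMPs in each library, stacked by gene on a linear axis from 0. The MMP column is 438 FPKM in AGS siScramble, where MMP1 makes up 42.2% of it, and 315.1 FPKM in AGS siHOXB9, where MMP1 makes up 15.6%.

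The make-up of the protease pool differed as well. In MKN1 siHOXB9 and siScramble MMP15 gave 48.0% and 49.2% of the MMP sum and MMP2 gave 41.1% and 37.2%. In AGS siHOXB9 and siScramble MMP14 gave 60.8% and 37.0%, MMP15 gave 20.6% and 19.4%, and MMP1 gave 15.6% and 42.2%. TIMP1 gave 73.4% and 72.7% of the TIMP sum in MKN1 siHOXB9 and siScramble and 87.8% and 87.5% in AGS siHOXB9 and siScramble, so the inhibitor make-up hardly moved with siHOXB9 in either line.

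Promoter windows of 300 bases, from 250 before to 50 after the start of the RefSeq transcript (GRCh38.p14), were on hand for 6 of the 10 genes: MMP7, MMP14, MMP15, MMP24, TIMP1 and TIMP3. MMP14 and TIMP3 are shown because their levels differ between the lines in opposite directions, and MMP7 because its siHOXB9 change was the most negative among the measured members in MKN1. All 3 are printed 5′ to 3′ on the gene's strand, MMP7 from chr11:102530698-102530997 on the reverse strand, MMP14 from chr14:22836335-22836634 on the forward strand and TIMP3 from chr22:32801455-32801754 on the forward strand. Capitals mark TGANTCA, the consensus of the AP-1 factors, and TAAT or its reverse complement ATTA, the core bound by many homeodomain proteins.
MMP7: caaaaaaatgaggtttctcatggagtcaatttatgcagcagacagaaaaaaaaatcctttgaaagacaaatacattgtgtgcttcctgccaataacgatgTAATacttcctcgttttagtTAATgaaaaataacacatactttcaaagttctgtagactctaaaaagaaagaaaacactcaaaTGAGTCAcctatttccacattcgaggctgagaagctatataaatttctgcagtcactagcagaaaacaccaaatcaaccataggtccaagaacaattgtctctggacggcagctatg
MMP14: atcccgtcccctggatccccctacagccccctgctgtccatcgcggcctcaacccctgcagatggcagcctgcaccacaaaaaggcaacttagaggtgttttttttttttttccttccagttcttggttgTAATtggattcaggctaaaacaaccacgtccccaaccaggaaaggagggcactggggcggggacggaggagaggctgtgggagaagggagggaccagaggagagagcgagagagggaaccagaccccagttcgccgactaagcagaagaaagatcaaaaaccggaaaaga
TIMP3: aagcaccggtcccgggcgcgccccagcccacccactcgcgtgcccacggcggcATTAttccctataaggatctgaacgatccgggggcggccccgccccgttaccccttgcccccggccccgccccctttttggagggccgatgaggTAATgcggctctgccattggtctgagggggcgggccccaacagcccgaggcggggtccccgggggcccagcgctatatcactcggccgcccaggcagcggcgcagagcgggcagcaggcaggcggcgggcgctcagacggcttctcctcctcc

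The MMP7 window holds TGAGTCA from position -67 relative to the start. It also holds TAAT from positions -150 and -130. A TATA box, spelled TATAAA, begins at position -30. TGANTCA occurs in 7.71% of all 35116 promoter windows, and TATAAA in 11.5%. Among the 6 windows, TGANTCA and TATAAA were found in that of MMP7 alone. TAAT on either strand occurs in 50.2% of all windows, and was found in those of MMP7, MMP14, TIMP1 and TIMP3 and in neither of MMP15 and MMP24. The MMP7 window has 4 CG dinucleotides, MMP14 has 10, TIMP1 has 16, TIMP3 has 31, MMP24 has 37 and MMP15 has 39, where the median over all windows is 14. These letters describe the reference sequence, and a match is not a binding site.

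The comparison of siHOXB9 with siScramble in AGS asked which of these genes moved with HOXB9. The main difference was in MMP1, at 49.2 FPKM with siHOXB9 against 185 FPKM with siScramble, which is 26.6% of the control and a log2 change of -1.89 with 1 FPKM added. MMP1 was the single member past the size rule. That rule is a 2-fold difference with 1 FPKM added, for genes that reach 1 FPKM with one siRNA or the other. Of 13252 genes measured in AGS 2.21% were lower and 3.89% differed in either direction by this rule, against 1 of 6 measured members. MMP1 had the 33rd most negative change among those genes. At the estimated depth its values stand for about 1050 fragments with siHOXB9 and 4130 with siScramble, and counting error alone gives 24.7% to 28.3% of the control (exact binomial 95% interval). That interval does not cover variation between cultures. In bulk RNA, fewer cells with a transcript and less of it per cell cannot be told apart.

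The other measured members in AGS stayed within the size rule. MMP24 was at 8.85 FPKM with siHOXB9 and 5.57 FPKM with siScramble (log2 change 0.58, with a counting interval of 137% to 184% of the control). MMP14 was at 191.6 FPKM with siHOXB9 and 162 FPKM with siScramble (log2 change 0.24). Both were higher with siHOXB9, and so were TIMP1 (315.5 against 261.5 FPKM, log2 change 0.27) and TIMP2 (43.9 against 37.3 FPKM, log2 change 0.23). MMP15 was lower, at 64.9 FPKM with siHOXB9 and 84.8 FPKM with siScramble (log2 change -0.38). The median change of the 6 measured members was 0.23, and that of all 13252 genes was -0.06, with the middle 90% between -0.75 and 0.62. MMP2, MMP7, MMP9 and TIMP3 were under 1 FPKM in both AGS libraries and are not counted.

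The lower protease sum in AGS siHOXB9 lay in MMP1. Without MMP1 the other 6 MMPs came to 266 FPKM with siHOXB9 and 253 FPKM with siScramble, and the ratio of TIMP to MMP transcript was 1.35 with siHOXB9 and 1.18 with siScramble. With MMP1 it was 1.14 with siHOXB9 and 0.682 with siScramble. The secreted proteases came to 49.8 FPKM with siHOXB9 and 185.6 FPKM with siScramble, while the membrane proteases came to 265 FPKM with siHOXB9 and 253 FPKM with siScramble.

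The same comparison in MKN1 gave no member past the size rule, of 7 measured. Over 13122 measured genes 4.05% passed it in either direction. The largest changes were those of MMP2, at 31.6 FPKM with siHOXB9 and 20.7 FPKM with siScramble (log2 change 0.59), and MMP7, at 1.30 FPKM with siHOXB9 and 2.41 FPKM with siScramble (log2 change -0.57). MMP2 ranked above 92.1% of measured genes and MMP7 above 5.62%, so neither lay outside the middle 90% of all genes, which ran from -0.61 to 0.71 around a median of 0.09. MMP15 (37.0 FPKM with siHOXB9 and 27.4 FPKM with siScramble, log2 change 0.42) and MMP24 (6.05 FPKM with siHOXB9 and 4.38 FPKM with siScramble, log2 change 0.39) were higher with siHOXB9. The inhibitors had the smallest log2 changes, 0.18 for TIMP1, 0.13 for TIMP2 and 0.11 for TIMP3, and for TIMP3 counting error alone gives 97.7% to 121% of the control. The median change of the 7 members was 0.18. The target HOXB9 was itself within the size rule in MKN1 (log2 change -0.81 with 1 FPKM added). The added 1 FPKM shrinks this change, since in FPKM HOXB9 was at 19.1% of the control. These values stand for about 5.41 fragments with siHOXB9 and 30.5 with siScramble. In AGS HOXB9 was at 27.0% of the control, or about 129 fragments with siHOXB9 and 498 with siScramble (log2 change -1.68).

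**Figure D3:**
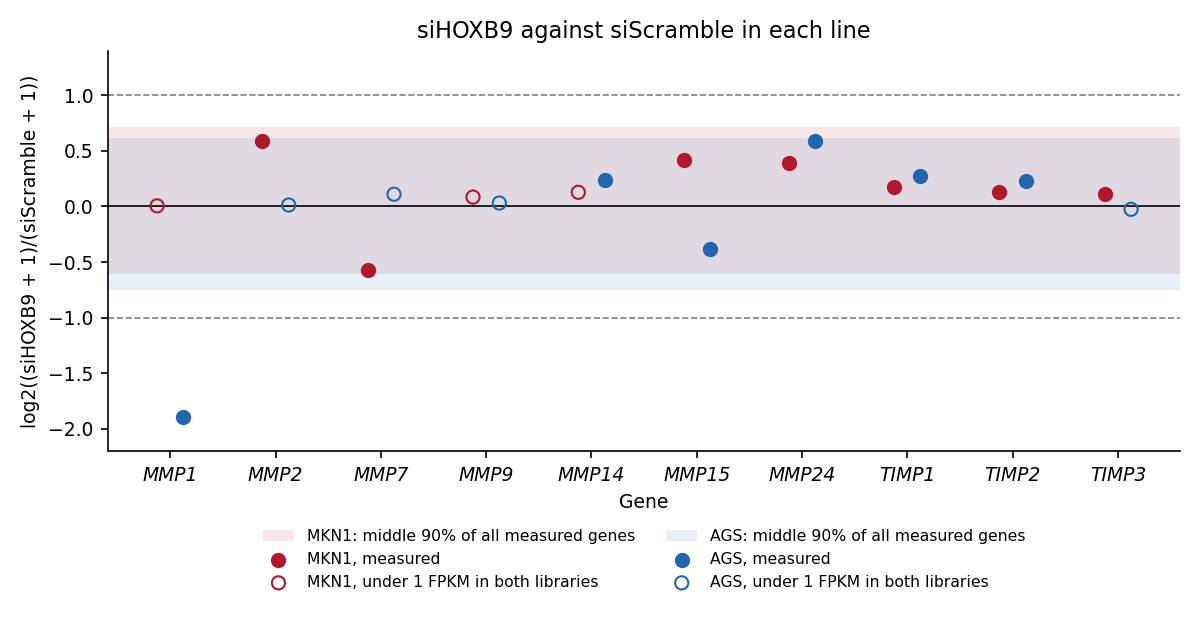
Log2 change with siHOXB9, with 1 FPKM added, per gene and line; open circles are genes under 1 FPKM in both libraries of the line, shaded bands hold the middle 90% of all measured genes, and dashed lines mark a 2-fold difference. MMP1 in AGS, at -1.89, is the one point beyond the dashed lines.

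Set side by side, 4 members were measured in both lines. MMP24 was higher with siHOXB9 in both (log2 change 0.39 in MKN1 and 0.58 in AGS), and so were TIMP1 (0.18 and 0.27) and TIMP2 (0.13 and 0.23). MMP15 went opposite ways, with 0.42 in MKN1 and -0.38 in AGS, a difference of 0.80. Of 11547 genes measured in both lines 46.9% had changes of opposite sign, and 10.4% differed between the lines by at least as much as MMP15. For MMP1 the change in MKN1 minus that in AGS was 1.90, but the MKN1 value rests on about 1 fragment a library and shows neither a change nor its absence. With 4 libraries the difference of the changes has no residual degree of freedom and was not tested.

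Over both lines, the limma fit called none of the 9 tested members for siHOXB9 at an adjusted p of 0.05, and 0 of them had an unadjusted p under 0.05. It called 1 of 13758 rows, which is 0.00727%, while 7.12% of rows had an unadjusted p under 0.05. MMP1, MMP2, MMP7, MMP14 and TIMP3 were under 1 FPKM in both libraries of one line. Their estimates average the change of one line with that of a line where they did not count as measured. The disagreement of the lines enters the error, so a missing call for these genes shows no absence of a change. MMP1 had the largest estimate (-0.94, SE 0.408, unadjusted p 0.0531, adjusted p 0.703), followed by MMP24 (0.49, SE 0.212, unadjusted p 0.0543, adjusted p 0.705). MMP2 had an estimate of 0.30 (SE 0.238, adjusted p 0.869) and MMP7 of -0.23 (SE 0.244, adjusted p 0.909). The 3 TIMPs lay between 0.04 and 0.22 with adjusted p from 0.861 to 0.991, and MMP15, whose changes cancel, was at 0.02 (SE 0.226, adjusted p 0.993).

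MMP1 lies on the reverse strand of chromosome 11 (102789920 to 102798160 in GRCh38, 1 transcript with 10 exons), within a cluster of 9 MMP genes that runs from MMP7 to MMP13. MMP1 was the one gene of the cluster above 1 FPKM in AGS, and MMP7 the one in MKN1. MMP10 (stromelysin 2), the neighbour on the lower-coordinate side, was at 0.748 FPKM with siHOXB9 and 0.205 FPKM with siScramble in AGS and listed at 0 in both MKN1 libraries. MMP3 (stromelysin 1), the neighbour on the other side, was at 0.0455 FPKM with siHOXB9 and 0.0438 FPKM with siScramble in AGS. MMP27 and MMP8 were listed at 0 in all 4 libraries. At these levels the adjoining genes could not show a lower value with siHOXB9.

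**Figure D4:**
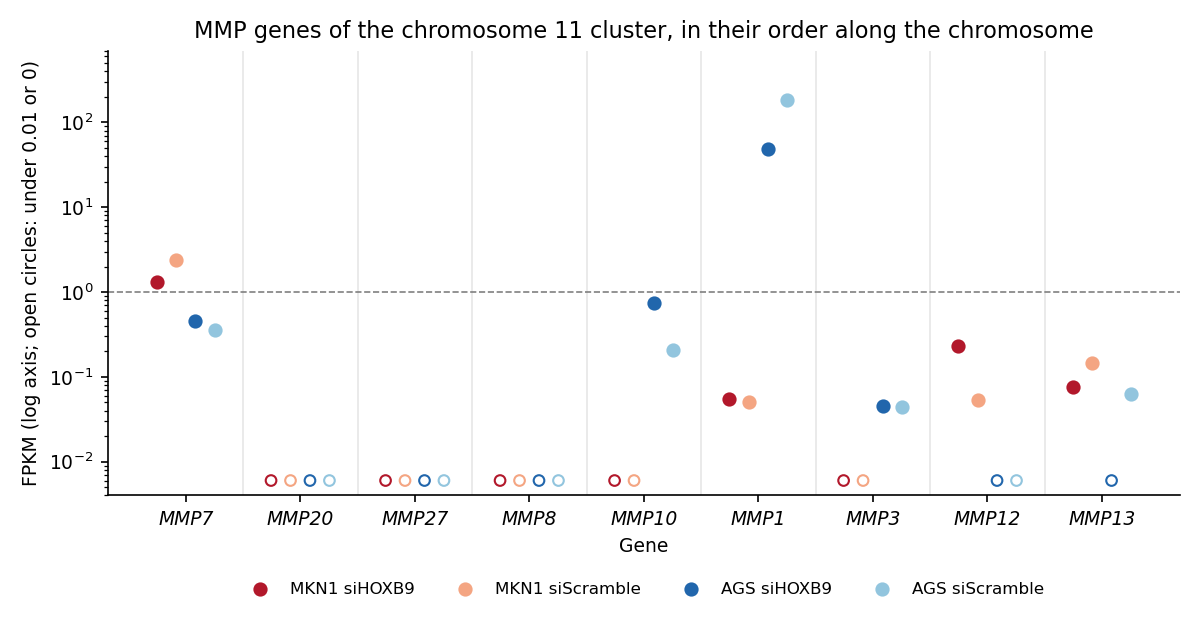
FPKM on a log axis of the 9 MMP genes of the chromosome 11 cluster in their order along the chromosome, 1 point per library. In AGS MMP1 stands at 49.2 FPKM with siHOXB9 and 185 FPKM with siScramble, and every other gene of the cluster lies under 1 FPKM in AGS.

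The other members lie elsewhere, except MMP7, and are given here in GRCh38 coordinates of GENCODE 29. MMP14 spans chr14:22836557-22849027, MMP2 spans chr16:55389700-55506691 and MMP15 spans chr16:58025566-58046901, all on the forward strand. MMP9 (chr20:46008908-46016561) and MMP24 (chr20:35226654-35277000) share chromosome 20, on the forward strand. TIMP1 (chrX:47582313-47586789) and TIMP3 (chr22:32801701-32863043) are on the forward strand and TIMP2 (chr17:78852977-78925387) and MMP7 (chr11:102520508-102530753) on the reverse strand.

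Several members overlap other genes, and the protocol in the labels mentions no strand marking. Exons of MMP1 overlap those of the pseudogene WTAPP1 on the opposite strand, which was at 0.112 FPKM with siHOXB9 and 0.351 FPKM with siScramble in AGS, far below MMP1. Exons of MMP24 overlap those of its opposite-strand gene, given as MMP24-AS1 in the table and as MMP24OS in GENCODE. MMP24-AS1 was at 19.99 and 20.3 FPKM in MKN1 siHOXB9 and siScramble and 41.5 and 48.6 FPKM in AGS siHOXB9 and siScramble, above MMP24 in every library. Without strand, reads from the shared exon sequence cannot be assigned to one of the pair, and how much of MMP24 is shared was not measured. TIMP1 and TIMP3 lie within the synapsin genes SYN1 and SYN3 on the opposite strand with no shared exon, and these were under 0.2 FPKM in all 4 libraries. Exons of MMP9 overlap those of the antisense gene SLC12A5-AS1. Exons of TIMP2 overlap those of CEP295NL on its own strand and of the antisense gene AC022966.1, and exons of MMP2 overlap those of AC007336.3 on its own strand. MMP7, MMP14 and MMP15 overlap no annotated gene.

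In all, 24 rows of the table carry the symbol of an MMP gene. Of the family members outside the 10, the most abundant were MMP17, a membrane-type MMP with a lipid anchor, at 39.8 and 38.4 FPKM in MKN1 siHOXB9 and siScramble, and TIMP4, at 8.39 and 5.75 FPKM in the same libraries. Both were listed at 0 in the AGS libraries. With every MMP row included the ratio of TIMP1, TIMP2 and TIMP3 to MMP transcript was 3.77 and 4.17 in MKN1 siHOXB9 and siScramble and 1.12 and 0.675 in AGS siHOXB9 and siScramble. Of 17 other genes listed for the family, TIMP4 among them, 2 were measured in MKN1 and 1 in AGS (MMP11, 2.85 FPKM with siHOXB9 and 2.36 FPKM with siScramble), with none past the size rule. That list does not hold every MMP row that enters the ratio.

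Of 13 genes of proenzyme activation and the plasmin system, 7 were measured in MKN1 and 8 in AGS, and none passed the size rule (median change 0.16 in MKN1 and -0.02 in AGS). FURIN, the convertase that matures membrane-type MMPs, was at 313 FPKM with siHOXB9 and 221 FPKM with siScramble in MKN1 and at 134.5 FPKM with siHOXB9 and 136 FPKM with siScramble in AGS. ST14, the membrane serine protease matriptase, was at 0.976 and 0.821 FPKM in MKN1 siHOXB9 and siScramble and 265 and 294 FPKM in AGS siHOXB9 and siScramble. The plasminogen activator gene PLAU, named after its values were seen, was at 24.1 and 21.5 FPKM in MKN1 siHOXB9 and siScramble and 0.747 and 0.569 FPKM in AGS siHOXB9 and siScramble.

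Of the surface partners and other inhibitors, 13 were measured in MKN1 and 10 in AGS, with none past the size rule (median 0.12 and 0.00). BSG, the inducer of MMPs known as EMMPRIN, was at 1083 and 968 FPKM in MKN1 siHOXB9 and siScramble and at 964 and 955 FPKM in AGS siHOXB9 and siScramble, and CD151, a tetraspanin, was at 314 to 418 FPKM over the 4 libraries. Of the ADAM and ADAMTS proteases 7 were measured in MKN1 and 5 in AGS, with none past the size rule (median 0.33 and 0.09). ADAM15 was at 225 and 220 FPKM in MKN1 siHOXB9 and siScramble and 162 and 227 FPKM in AGS siHOXB9 and siScramble. ADAM9 was at 45.0 and 49.7 FPKM in MKN1 siHOXB9 and siScramble and 105 and 117.5 FPKM in AGS siHOXB9 and siScramble.

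Of 21 transcription factors known to act on MMP promoters, 21 were measured in MKN1 and 17 in AGS (median 0.08 and -0.08). One passed the size rule: ETV4, an ETS factor, was at 23.5 FPKM with siHOXB9 and 58.3 FPKM with siScramble in AGS (log2 change -1.28) and at 67.8 FPKM with siHOXB9 and 66.8 FPKM with siScramble in MKN1 (log2 change 0.02). That is 1 of 17 measured factors, where 2.21% of all genes measured in AGS were lower and 3.89% differed in either direction, and nothing is read from a single gene. The AP-1 subunit JUND was at 118 and 132 FPKM in MKN1 siHOXB9 and siScramble and 211 and 199 FPKM in AGS siHOXB9 and siScramble. CTNNB1, beta-catenin, was at 81.2 and 76.9 FPKM in MKN1 siHOXB9 and siScramble and 118 and 106 FPKM in AGS siHOXB9 and siScramble. FOS, named after its values were seen, was lower with siHOXB9 in both lines without passing the rule, at 2.29 FPKM against 5.34 FPKM in MKN1 and 5.13 FPKM against 9.17 FPKM in AGS.

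Of 18 MMP substrates 13 were measured in MKN1 and 10 in AGS, with none past the size rule (median 0.14 and 0.10). LAMB3, the beta chain of laminin-332, was at 92.1 and 66.4 FPKM in MKN1 siHOXB9 and siScramble and 75.5 and 70.3 FPKM in AGS siHOXB9 and siScramble. COL4A2, a chain of basement membrane collagen, was at 120 and 114 FPKM in MKN1 siHOXB9 and siScramble and 0.970 and 0.998 FPKM in AGS siHOXB9 and siScramble. COL1A1, a chain of the fibrillar collagen that MMP1 cleaves, was named after its values were seen. It was at 43.9 and 35.0 FPKM in MKN1 siHOXB9 and siScramble and at 29.3 and 15.8 FPKM in AGS siHOXB9 and siScramble. The summed level of the 8 fibroblast markers was 72.6 and 59.1 FPKM in MKN1 siHOXB9 and siScramble and 43.5 and 28.4 FPKM in AGS siHOXB9 and siScramble. COL1A2 and POSTN were at 0 throughout. The highest markers were COL1A1, COL3A1 and LUM in MKN1 and COL1A1 and PDGFRA in AGS.

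**Figure D5:**
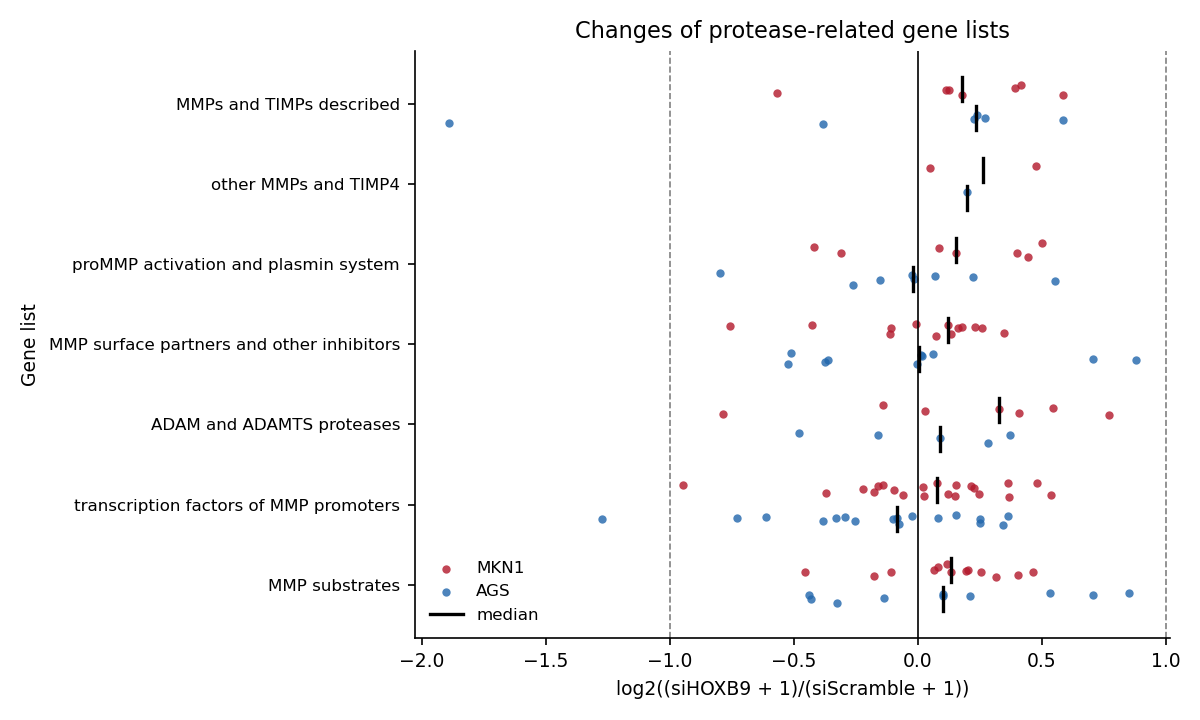
Log2 change with siHOXB9 of each measured gene by list and line, with black bars at the medians and dashed lines at a 2-fold difference. Changes were computed with 1 FPKM added. MMP1 (-1.89) and ETV4 (-1.28), both in AGS, are the points beyond a 2-fold difference on this scale. Some low genes differ by more than that in FPKM itself, among them FOS in MKN1 (42.8% of the control) and LCN2 in AGS (802%).

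The genes whose levels over the 4 libraries were most like those of MMP1 were found by Euclidean distance between log2(FPKM + 1) values centred on each gene's mean, among 10975 single-row genes that reached 5 FPKM in some library. They were MIR3648 (distance 0.475), LGALS4 (0.891) and FUT1 (0.913). LGALS4, a galectin of the gut epithelium, was at 0.419 and 0.378 FPKM in MKN1 siHOXB9 and siScramble and 128 and 216 FPKM in AGS siHOXB9 and siScramble. FUT1, a fucosyltransferase, was at 0.189 and 0.332 FPKM in MKN1 siHOXB9 and siScramble and 124 and 227 FPKM in AGS siHOXB9 and siScramble. The row named MIR3648 was listed at 0 in both MKN1 libraries and was at 64.6 FPKM with siHOXB9 and 155 FPKM with siScramble in AGS. Each log2 change in AGS was smaller than that of MMP1, at -0.75 for LGALS4, -0.87 for FUT1 and -1.25 for MIR3648. Only 4 values enter each distance, and most of it is set by the contrast of the lines.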

How the data were processed

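Polyadenylated RNA was sequenced in 4 libraries, per the labels (1 for each siRNA in each line). The deposited values are FPKM, computed by the authors. Per the submitters' processing notes the genome build was GRCh38 (also named hg38). Which aligner, counting tool and annotation were used is not given in the sources used here. Members, gene lists and motifs were chosen with earlier results of these data known.

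Changes within a line were log2((siHOXB9 + 1)/(siScramble + 1)), a scale that understates changes of low genes. A gene was measured at 1 FPKM or more in either library and past the size rule at a 2-fold difference. There is no test within a line. limma 3.58.1 (R 4.3.3) was fitted to log2(FPKM + 1) with line and siRNA as terms and an intensity trend. Two-sided p-values were Benjamini-Hochberg adjusted over 13758 rows. The fit was also run on simulated data whose changes were the same in both lines. That run says nothing of changes present in one line alone. Depth was estimated from single-transcript genes of GENCODE 29, whose lengths were shortened by 260 bases. Of their low values 56.9% to 58.8% lay within 0.05 of a whole fragment. Fragment numbers and intervals are estimates that cover counting error alone.

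Named genes were all 10 members, HOXB9, list genes past the size rule, the 2 most abundant of each list, and the 3 nearest to MMP1. Overlapping genes, cluster neighbours, cell type markers, PLAU, FOS and COL1A1 were named outside this rule. PECAM1 had no row and ITGB3 had 2, and both were left out of counts. The closing section gives the effect of the alternatives: pseudocount, filter, scaling, size rule and model terms.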

Additional observations from a re-analysis of the deposited data

Results flagged for a closer look

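MMP15 was the one gene of the 10, among the 4 measured in both lines, whose siHOXB9 change pointed opposite ways in the lines. It was at 37.0 FPKM with siHOXB9 and 27.4 FPKM with siScramble in MKN1, and at 64.9 FPKM with siHOXB9 and 84.8 FPKM with siScramble in AGS. The MKN1 change minus the AGS change was 0.798 on the log2 scale. The difference was not tested, since each line has a single pair of libraries. Of 11547 genes measured in both lines, 46.9% had changes of opposite sign and 10.4% differed by at least as much. MMP15 thus does not stand out from other genes.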

How the results depend on the processing

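MMP1 in AGS remained past the size rule under each of the 7 alternatives, and the count of members past it there was 1 under all of them. In MKN1 the count was 0 except under a size rule of 1.5-fold, where it was 1 (MMP2). The count of members whose changes differed by at least 1 between the lines was 1 (MMP1), and 2 (MMP1 and MMP7) with a pseudocount of 0.1 FPKM. This count takes genes measured in either line. MMP1 was under 1 FPKM in both MKN1 libraries and MMP7 in both AGS libraries. The share of all genes was not computed, so nothing is read from the count. Of the tested members, 0 were called for siHOXB9 over both lines under every alternative, and 5 to 7 were called between MKN1 and AGS. In the main fit 16.2% of all rows were called higher and 20.9% lower in MKN1. MMP1, MMP2, MMP7, MMP14 and TIMP3 passed its level filter only through one line, so the count of members supports nothing. For siHOXB9, 2 of 8 members had an unadjusted limma p under 0.05 with a filter of 5 FPKM, against 7.76% of all rows. Without intensity trend it was 1 of 9, against 7.12% of all rows. MMP15 was no longer called between the lines without a filter on low values (adjusted p 0.112 in limma). The cause was not tested. Over all genes, the count past the size rule in AGS was 516, against 1037 with a pseudocount of 0.1 FPKM, 256 with a filter of 5 FPKM and 1856 at 1.5-fold, and in MKN1 it was 531, against 1025, 257 and 1752. Rows called between the lines numbered 5109 of 13758, and 2750 of 24308 with no filter. Rows called for siHOXB9 over both lines numbered 1, against 8 with a filter of 5 FPKM, 7 with the robust option, and 0 with a pseudocount of 0.1 FPKM, no filter, any rescaling or no term for line. The share of upward calls in AGS was 43.2%, and 54.2% after rescaling to a common total. In MKN1 it was 52.0%, and 39.7% after centring. No scaling moved the median siHOXB9 change within a line by more than 0.0947. For MKN1 minus AGS, the median estimate over all rows was -0.101, and 0.0875 after centring. MMP15 was then at -1.006, against -1.195 in the main fit, close to the size rule. The fit over both lines is paired by line, since the line is one of its terms; the labels carry no replicate numbers that could form a further block. With 1 library per line and siRNA, no library can be left out. Depth limits MMP9 in all libraries, MMP1 in MKN1 and TIMP3 in AGS, which rest on a few fragments or none. Fragments were estimated for single-transcript genes alone. MMP2 and MMP7 in AGS and MMP14 in MKN1, also under 1 FPKM, have no such estimate and may be limited as well.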
